A study of Mus musculus with 8 samples.

Results

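The genes described here are 6 markers of the epicardium and mesothelium, the cell layer that covers the heart. They were read by RNA sequencing in 8 libraries of mouse hearts. They are Krt19, Upk3b, Msln, Wt1, Krt8 and Krt18, chosen by gene name, and all 6 of them were among the 11704 genes of the expression table. Newborn mice had received an adeno-associated virus of serotype 9 under the skin, and hearts were taken when the animals were 8 to 10 weeks old. In 4 samples the virus carried mouse Fgf17, a secreted fibroblast growth factor (AAV-FGF17), and in 4 it was the control vector, so that all 8 hearts had been given a virus. Strain, sex and the promoter of the vector are not given in the sources used here. The table's columns carry the word sham, and whether the hearts were operated on is not given either. The comparison asks how these genes stand in the adult heart when Fgf17 is supplied by the vector.

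The epicardium is a thin mesothelium that lies over the heart muscle, with fat and the coronary vessels beneath it. In the embryo its cells need the transcription factor WT1, and some of them leave the surface and give rise to fibroblasts and mural cells of the vessels. In the adult the layer is largely quiescent and keeps an epithelial character, with keratin filaments and mesothelin at its surface. Keratins assemble as pairs of a type I and a type II chain. KRT8 is the type II chain of simple epithelia, and KRT18 and KRT19 are type I chains that can pair with it.

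Fgf17 checked the group labels, at 90.8, 173, 69.0 and 123 FPKM in AAV-FGF17 libraries 1 to 4 and at 9.59, 1.43, 0.560 and 9.86 FPKM in control libraries 1 to 4. FPKM are fragments per kilobase of transcript, scaled to the mapped fragments of the library. Control libraries 2 and 3 stood apart from the rest. Mitochondrially encoded genes made up 44.5% and 30.9% of their FPKM sum, against 62.8% to 66.9% in the other 6 libraries, and a smaller mitochondrial share raises the FPKM of nuclear genes in a library. Control libraries 1 and 4 were the most alike of all pairs, their log2 ratios spreading with a robust SD of 0.0758 over 1122 genes, against 0.112 for the next pair, control library 4 and AAV-FGF17 library 3. Markers of heart muscle were abundant in every library, with Myh6, the alpha myosin heavy chain, between 2316 and 7414 FPKM. The 6 surface markers were low by comparison, with values from 0.453 to 9.22 FPKM. In such tissue samples fewer cells of a type and less RNA per cell cannot be told apart.

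The genes lie on 5 chromosomes, with coordinates on GRCm38 as the table gives them. Krt19 (ENSMUSG00000020911.14) spans chr11:100140810-100148665 on the minus strand, Upk3b (ENSMUSG00000042985.7) chr5:136038496-136046487 on the plus strand and Msln (ENSMUSG00000063011.6) chr17:25748614-25754327 on the minus strand. Wt1 (ENSMUSG00000016458.14) spans chr2:105126529-105173616 on the plus strand. Krt8 (ENSMUSG00000049382.9) and Krt18 (ENSMUSG00000023043.6) are neighbours on chromosome 15, at chr15:101996711-102004342 on the minus strand and chr15:102028216-102032026 on the plus strand. They point away from each other across 23873 bases. Krt8 overlaps the noncoding gene Gm36026 on the other strand in the GENCODE M21 annotation, and whether strand was used in counting is not given, so reads of the shared stretch cannot be told apart. That annotation also names a Krt8 pseudogene, so the Krt8 value is uncertain to the extent that reads were shared with it.

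Upstream sequences are shown for Upk3b, which separated the groups as deposited, and for the keratin partners Krt8 and Krt18, which did not. These 3 of the 6 genes have an entry in the RefSeq promoter table (GRCm38.p6). Each sequence covers 250 bases before the annotated start and 20 from it, read on the gene's strand, at chr5:136038246-136038515 (plus), chr15:102004323-102004592 (minus) and chr15:102027966-102028235 (plus). Capitals mark matches, on either strand, to short motifs. These were the TATA box, spelled TATAAA, the GC box of Sp1 factors, spelled GGGCGG, and the AP-1 motif of Fos and Jun, spelled TGANTCA. The TEAD motif was spelled CATTCC, the motif of GATA factors was spelled AGATAA and the motif of PEA3-type ETS factors was spelled AGGAAG. A core shared by WT1 and EGR factors was spelled GCGTGGG.
Upk3b: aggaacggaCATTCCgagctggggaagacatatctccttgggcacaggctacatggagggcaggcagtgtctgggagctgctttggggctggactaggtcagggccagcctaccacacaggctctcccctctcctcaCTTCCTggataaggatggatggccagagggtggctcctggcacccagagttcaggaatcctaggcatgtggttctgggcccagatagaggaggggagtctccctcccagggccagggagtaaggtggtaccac
Krt8: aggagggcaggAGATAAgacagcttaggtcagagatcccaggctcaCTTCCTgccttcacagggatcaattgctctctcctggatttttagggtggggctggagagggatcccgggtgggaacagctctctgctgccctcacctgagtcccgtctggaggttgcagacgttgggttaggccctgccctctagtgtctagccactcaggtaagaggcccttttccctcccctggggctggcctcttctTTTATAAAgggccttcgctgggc
Krt18: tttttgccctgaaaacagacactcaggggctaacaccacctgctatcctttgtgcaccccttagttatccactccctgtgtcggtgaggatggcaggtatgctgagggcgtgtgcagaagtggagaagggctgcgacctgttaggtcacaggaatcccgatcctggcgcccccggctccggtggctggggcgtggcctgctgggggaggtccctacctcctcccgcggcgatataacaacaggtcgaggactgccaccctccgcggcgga
The Upk3b window held a TEAD match starting 241 bases before the start and an ETS match 113 bases before it. The Krt8 window held a GATA match 239 bases and an ETS match 204 bases before the start, and overlapping TATA matches on both strands at the start itself. The Krt18 window held none of the 7 motifs. The starts used here were base 102004342 for Krt8 and base 102028216 for Krt18. The GENCODE M21 annotation places them farther upstream, at 102004482 and 102028180, and distances from those starts would differ. Of 32851 windows of the same length, 13.5% held the TEAD motif, 31.8% the ETS motif, 10.5% the GATA motif and 12.9% the TATA motif. The GC box, AP-1 and WT1 motifs, found in 34.1%, 7.23% and 4.61% of windows, were in none of these 3. The matches describe letters and are not binding sites.

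Krt19, the smallest keratin, was the most abundant of the 6 genes. It measured 5.13, 9.22, 8.26 and 5.30 FPKM in control libraries 1 to 4 and 1.72, 2.28, 3.85 and 3.78 FPKM in AAV-FGF17 libraries 1 to 4. All 4 AAV-FGF17 hearts lay below all 4 controls, and the highest values came from control libraries 2 and 3. The group means were 2.91 ± 1.07 FPKM (SD, n = 4) with AAV-FGF17 and 6.98 ± 2.07 FPKM (n = 4) with the control vector, so the former was 41.7% of the latter. A two-sided exact permutation test gave p = 0.0286, the smallest that 4 against 4 allows. The log2 change, on the log2(FPKM + 1) scale and relative to the median of all tested genes, was -0.92 ± 0.24 (SE; 95% interval -1.45 to -0.39). Counted from the lowest change among 10025 tested genes it was number 34, and it did not pass limma (adjusted p = 0.495).

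Upk3b encodes a uroplakin, a membrane protein first known from the bladder lining and also a marker of mesothelium. Its values were 4.61, 3.74, 4.73 and 5.43 FPKM in control libraries 1 to 4 and 3.58, 1.23, 3.495 and 2.03 FPKM in AAV-FGF17 libraries 1 to 4. The groups did not overlap, though AAV-FGF17 libraries 1 and 3 lay just below the lowest control. Means were 2.58 ± 1.15 FPKM with AAV-FGF17 against 4.63 ± 0.693 FPKM with the control vector (SD, n = 4 each; two-sided exact permutation p = 0.0286). The log2 change relative to the median gene was -0.59 ± 0.23 (SE; 95% interval -1.10 to -0.078), with a limma adjusted p of 0.495. The interval reached above 0 without AAV-FGF17 library 2 (upper bound 0.0042) or 4 (0.056), without control library 1 (0.025) or 4 (0.074), and with control libraries 1 and 4 averaged as 1 sample (0.045).

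Msln encodes mesothelin, a glycolipid-anchored protein of the mesothelial surface. It measured 3.98, 4.66, 5.14 and 3.96 FPKM in control libraries 1 to 4 and 3.41, 0.497, 3.76 and 1.59 FPKM in AAV-FGF17 libraries 1 to 4. Controls lay close together, whereas the AAV-FGF17 hearts spread widely, with libraries 1 and 3 just below the controls and libraries 2 and 4 far below. Means were 2.32 ± 1.54 FPKM against 4.43 ± 0.572 FPKM (SD, n = 4 each; two-sided exact permutation p = 0.0286). The log2 change relative to the median gene was -0.73 ± 0.32 (SE; 95% interval -1.45 to -0.0086), with a limma adjusted p of 0.495. Without AAV-FGF17 library 2 the log2 change relative to the median gene was -0.43 (95% interval -0.92 to 0.065). The interval also reached above 0 without AAV-FGF17 library 4 (upper bound 0.18) or without control library 1 (0.076), 2 (0.12), 3 (0.11) or 4 (0.070). It did so without control libraries 2 and 3 together (0.32) and with control libraries 1 and 4 averaged as 1 sample (0.069). Array quality weights (0.13), a pseudocount of 0.1 (0.055) and rescaling to the sum of the nuclear genes (0.0076) gave the same.

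**Figure D1:**
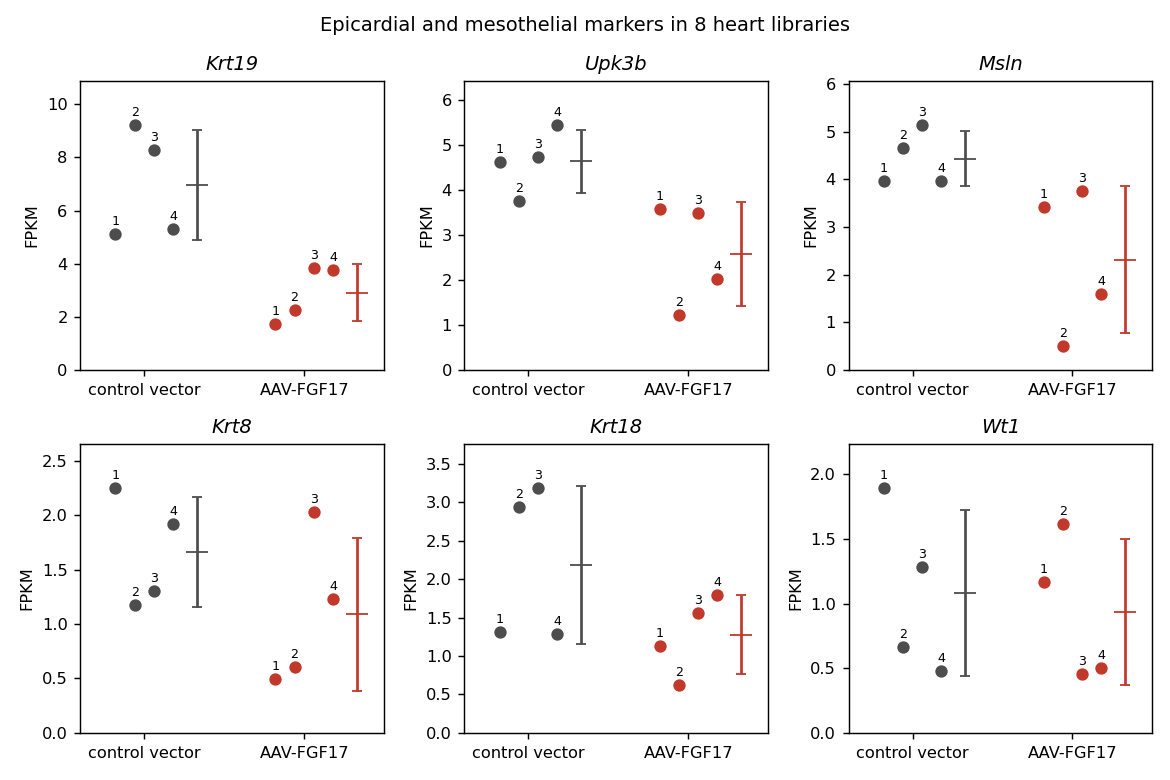
FPKM of the 6 markers in each library, numbered by replicate, with the mean and SD of each group beside the points. Krt19, Upk3b and Msln show no overlap of the groups, and Krt8, Krt18 and Wt1 do.

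Krt8 stood at 2.25, 1.175, 1.304 and 1.92 FPKM in control libraries 1 to 4 and at 0.494, 0.606, 2.03 and 1.23 FPKM in AAV-FGF17 libraries 1 to 4. AAV-FGF17 libraries 1 and 2 lay below every control, and library 3 lay among the highest. Means were 1.09 ± 0.704 FPKM against 1.66 ± 0.509 FPKM (SD, n = 4 each; two-sided exact permutation p = 0.286). The log2 change relative to the median gene was -0.27 ± 0.23 (SE; 95% interval -0.78 to 0.24), with a limma adjusted p of 0.502. It was -0.12 without AAV-FGF17 library 1, -0.14 without control library 1, -0.45 without AAV-FGF17 library 3 (95% interval -0.90 to -0.0099) and -0.60 without control libraries 2 and 3.

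Krt18 stood at 1.31, 2.94, 3.19 and 1.28 FPKM in control libraries 1 to 4 and at 1.13, 0.621, 1.56 and 1.79 FPKM in AAV-FGF17 libraries 1 to 4. Only control libraries 2 and 3 lay above all AAV-FGF17 hearts, and control libraries 1 and 4 lay within their range. Means were 1.27 ± 0.514 FPKM against 2.18 ± 1.02 FPKM (SD, n = 4 each; two-sided exact permutation p = 0.229). The log2 change relative to the median gene was -0.34 ± 0.25 (SE; 95% interval -0.89 to 0.21), with a limma adjusted p of 0.496, and it was -0.22 without AAV-FGF17 library 2 and -0.023 without control libraries 2 and 3.

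Though KRT8 and KRT18 proteins pair, their transcripts did not keep a fixed ratio. FPKM of Krt8 divided by that of Krt18 was 1.71, 0.400, 0.410 and 1.495 in control libraries 1 to 4 and 0.436, 0.976, 1.301 and 0.689 in AAV-FGF17 libraries 1 to 4. Control libraries 1 and 4 had the highest ratios and control libraries 2 and 3 the lowest, so the spread within the controls covered the whole range of the AAV-FGF17 hearts. The ratio of Krt19 to Krt18, the type I chains, ran from 2.59 to 4.13 in controls and from 1.52 to 3.67 in AAV-FGF17 hearts.

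Wt1, the zinc-finger transcription factor of the epicardium, was the lowest of the 6 genes and differed least between groups. It measured 1.90, 0.666, 1.29 and 0.482 FPKM in control libraries 1 to 4 and 1.169, 1.62, 0.453 and 0.500 FPKM in AAV-FGF17 libraries 1 to 4. High and low values occurred in both groups. Means were 0.935 ± 0.561 FPKM against 1.08 ± 0.642 FPKM (SD, n = 4 each; two-sided exact permutation p = 0.714). The log2 change relative to the median gene was 0.018 ± 0.25 (SE; 95% interval -0.54 to 0.58), with a limma adjusted p of 0.853. That interval includes changes as large as those of Krt8 and Krt18. With a mean over the libraries just above the 1 FPKM required for testing, Wt1 was the marker nearest to the limit of what was tested.

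Summed over the 6 markers, the level was 19.2, 22.4, 23.9 and 18.4 FPKM in control libraries 1 to 4 and 11.5, 6.85, 15.1 and 10.9 FPKM in AAV-FGF17 libraries 1 to 4. Group means of the sum were 11.1 ± 3.40 FPKM with AAV-FGF17 and 20.96 ± 2.62 FPKM with the control vector (SD, n = 4 each). Krt19 supplied 26.8% to 41.1% of the sum in controls and 15.0% to 34.6% in AAV-FGF17 hearts, the low end coming from AAV-FGF17 library 1. Msln supplied between 20.7% and 21.5% in each control, a narrow range, but 7.26% in AAV-FGF17 library 2 and 29.6% in library 1.

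Of the 6 markers, 0 passed limma over all genes at an adjusted p of 0.05, as did 0% of the tested genes. Fgf17, the gene supplied by the vector, did not pass either (limma adjusted p = 0.248). Not passing therefore does not show that a gene was unchanged. At an unadjusted p under 0.05, Krt19, Upk3b and Msln were lower, 3 of 6, where 7.98% of all tested genes were lower at that level. The same 3 of 6 had no overlap of the groups, against 4.64% of all tested genes separated in that direction. The medians of the 6 markers and of all tested genes differed by -0.46 on the log2 scale, and 5 of 6 markers lay below the median gene, which 50% of genes do. With FPKM rescaled by median-of-ratios size factors, Upk3b overlapped and Krt19 and Msln stayed separated, 2 of 6 against 2.42% of genes. With FPKM rescaled to the sum of the nuclear genes, Krt19 was the only 1 of the 6 markers without overlap, against 2.13% of genes. Comparing with control libraries 1 and 4 alone, Krt19 and Upk3b were lower at an unadjusted p under 0.05, 2 of 6 against 2.39% of genes, with log2 changes relative to the median gene of -0.69 and -0.79 and a limma adjusted p of 0.931 for each. Those 2 controls were the most alike pair of libraries, and whether they are separate animals is not given, so the control group of this comparison may amount to 1 sample. They also held more Fgf17 than the other controls, at 9.59 and 9.86 FPKM against 1.43 and 0.560 FPKM in control libraries 2 and 3.

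**Figure D2:**
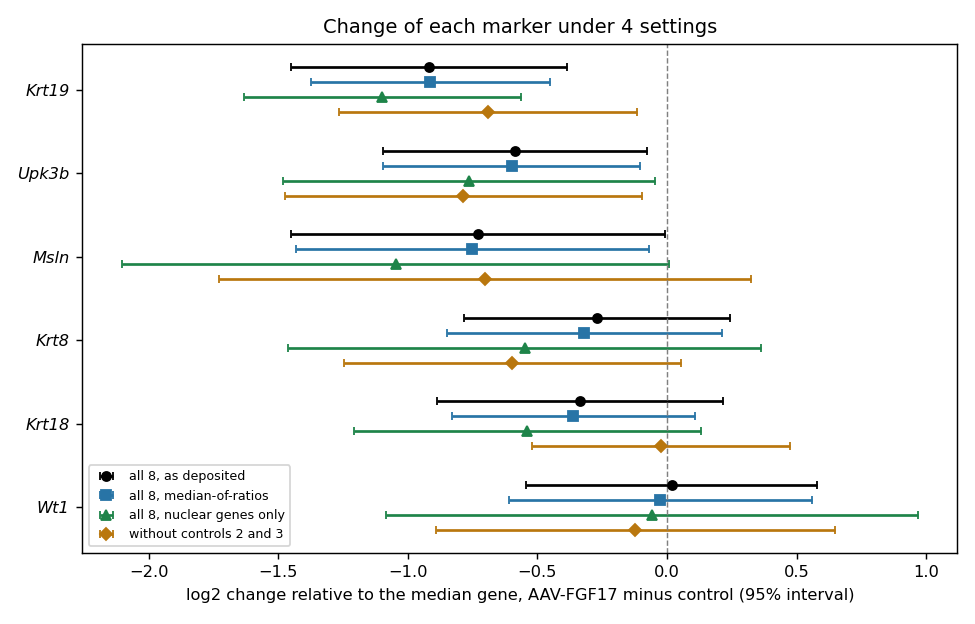
Log2 change of each marker relative to the median gene, AAV-FGF17 minus control vector, on the horizontal axis, with 95% intervals from limma under 4 settings. Krt19 and Upk3b lay below 0 with their whole interval in these 4 settings, though not Upk3b with some single libraries left out, while Krt18 moved to -0.023 without control libraries 2 and 3 and Wt1 stayed near 0.

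Co-variation over the 8 libraries was read from log2(FPKM + 1) less the median deviation of the library, for all 15 pairs of markers. The median Pearson r was 0.37, with a range from -0.52 to 0.91, and 10 of 15 pairs were above 0. After centring each group on its own mean the median was -0.12 and 6 of 15 pairs were above 0. No pair passed at an adjusted p of 0.05 over the 15 pairs. The exact permutation test gave an unadjusted p under 0.05 for 2 pairs with Pearson's r, for 2 with Spearman's rho and for 0 within groups.

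The closest pair was Upk3b and Msln, genes of the mesothelial surface, with r = 0.91 (exact permutation p = 0.0059, adjusted p = 0.089 over the pairs) and rho = 0.60 (exact permutation p = 0.132, adjusted p = 0.496). Within groups r was 0.84 (exact permutation p = 0.071). The relation rested on AAV-FGF17 libraries 2 and 4, the lowest for both genes, since r was 0.24 without them. Krt19 and Krt18 followed, with r = 0.79 (exact permutation p = 0.022, adjusted p = 0.168) and rho = 0.74 (exact permutation p = 0.046, adjusted p = 0.344). Within groups their r was 0.77 (exact permutation p = 0.0625), and it was 0.75 without AAV-FGF17 library 1 and control library 2, the farthest from the median of Krt19. Without control libraries 2 and 3, where the values of these 2 keratins were the highest of all, r was 0.47.

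Krt19 and Msln had r = 0.53 (exact permutation p = 0.159, adjusted p = 0.498) and rho = 0.83 (exact permutation p = 0.0154, adjusted p = 0.231), with r = -0.0077 within groups and 0.86 without AAV-FGF17 library 1 and control library 2. Msln and Krt18 had r = 0.56 (exact permutation p = 0.144, adjusted p = 0.498; rho = 0.69, exact permutation p = 0.0694, adjusted p = 0.347), with r = 0.35 within groups and 0.75 without AAV-FGF17 libraries 2 and 4. Krt19 and Upk3b, which each separated the groups, had r = 0.43 pooled (exact permutation p = 0.293, adjusted p = 0.591; rho = 0.33, exact permutation p = 0.428, adjusted p = 0.728) and -0.38 within groups, and 0.81 without AAV-FGF17 library 1 and control library 2. Krt8 and Krt18 had r = 0.035 (exact permutation p = 0.932, adjusted p = 0.932; rho = 0.24, exact permutation p = 0.582, adjusted p = 0.728), and r was -0.075 without control library 1 and AAV-FGF17 library 1 but 0.52 without control libraries 2 and 3. Krt19 and Krt8 had r = 0.40 over all 8 libraries (exact permutation p = 0.316, adjusted p = 0.591; rho = 0.29, exact permutation p = 0.501, adjusted p = 0.728), 0.32 without AAV-FGF17 library 1 and control library 2, and 0.94 without control libraries 2 and 3. Wt1 had a negative r with each of the other 5 markers, between -0.52 and -0.20, and none of these passed.

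**Figure D3:**
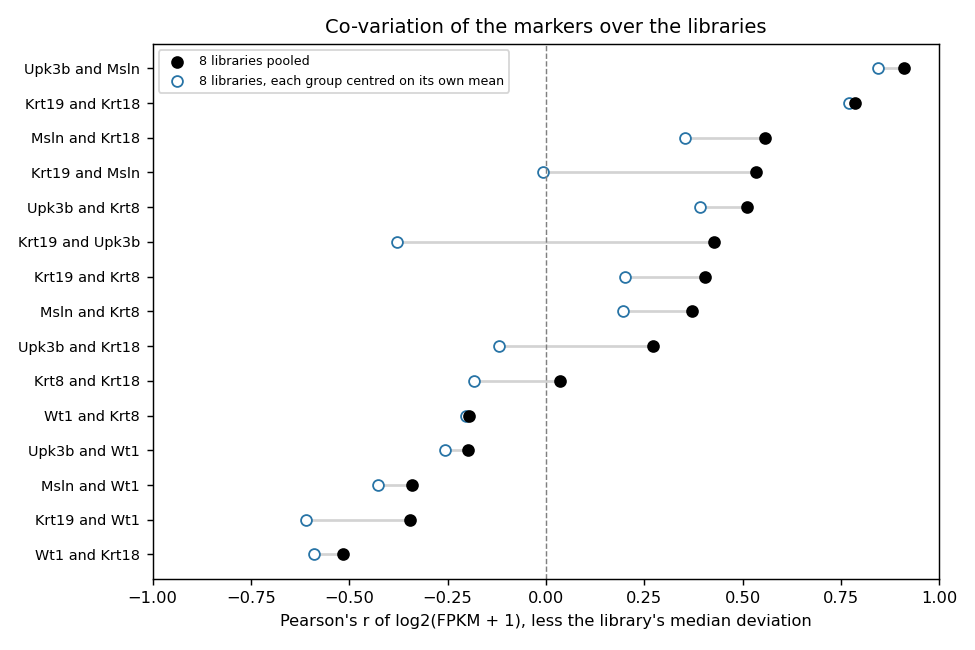
Pearson's r of each of the 15 pairs of markers over 8 libraries (filled points) and after centring each group on its own mean (open points). Upk3b with Msln and Krt19 with Krt18 stayed high in both, Krt19 with Upk3b turned from 0.43 to -0.38, and all pairs with Wt1 lay below 0.

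Other genes of the mesothelium and epicardium were read from a list of 26, of which 20 were in the table and 19 reached a mean of 1 FPKM. Of these 19, 13 had a change below that of the median gene and 6 above, and the list's own median was -0.21 relative to it. None passed limma over all genes. At an unadjusted p under 0.05, 9 of 19 were lower and 0 higher, against the 7.98% of all tested genes that were lower. Of the 19, 3 had no overlap of the groups as deposited, namely C3, Cldn15 and Nkain4, against 4.64% of all tested genes, and 2 after median-of-ratios scaling, against 2.42%. Without control libraries 2 and 3, 16 of 19 lay below the median gene and 7 were lower at an unadjusted p under 0.05, against 2.39% of all genes in that comparison. It keeps only control libraries 1 and 4, the most alike pair, which may amount to 1 sample, so its p-values may be too small.

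C3, the central complement component, made by mesothelium, fibroblasts and fat alike, measured 63.4, 79.8, 68.0 and 63.9 FPKM in control libraries 1 to 4 and 42.2, 30.7, 60.2 and 31.9 FPKM in AAV-FGF17 libraries 1 to 4. AAV-FGF17 library 3 lay near the controls and the other 3 lay far below. The log2 change of C3 relative to the median gene was -0.65 ± 0.20 (SE, limma adjusted p = 0.495). Rspo1, a secreted activator of Wnt signalling, stood at 1.71 ± 0.589 FPKM with AAV-FGF17 against 3.07 ± 0.591 FPKM with the control vector (SD, n = 4 each; limma adjusted p = 0.495), and its groups overlapped. Clu, the secreted chaperone clusterin, stood at 85.1 ± 16.9 against 116 ± 30.2 FPKM. Podxl, podocalyxin, which endothelium also expresses, stood at 35.9 ± 3.56 against 38.8 ± 0.757 FPKM, a log2 change of 0.0028 relative to the median gene.

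Some further genes of the list were picked after their values were seen. Upk1b, a uroplakin like Upk3b, stood at 2.79 ± 0.705 FPKM with AAV-FGF17 and 3.92 ± 0.661 FPKM with the control vector. Gpm6a, a membrane glycoprotein of mesothelium and neurons, stood at 5.74 ± 1.70 against 9.23 ± 1.59 FPKM, and Cldn15, a tight junction claudin, at 2.33 ± 0.653 against 3.71 ± 0.271 FPKM. Tcf21, a transcription factor of epicardium and cardiac fibroblasts, measured 2.49 ± 0.770 against 1.91 ± 0.245 FPKM, and Aldh1a2, the retinoic acid-synthesizing enzyme of the epicardium, 3.77 ± 0.826 against 4.12 ± 1.34 FPKM. AAV-FGF17 library 2 was the lowest of all 8 libraries for 15 of the 19 genes, and for 3 of the 6 markers, as it was for 27.9% of all tested genes. This library had the highest mitochondrial share. After median-of-ratios scaling it was the lowest for 9 of the 19 genes, 3 of the 6 markers and 10.2% of all tested genes.

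**Figure D4:**
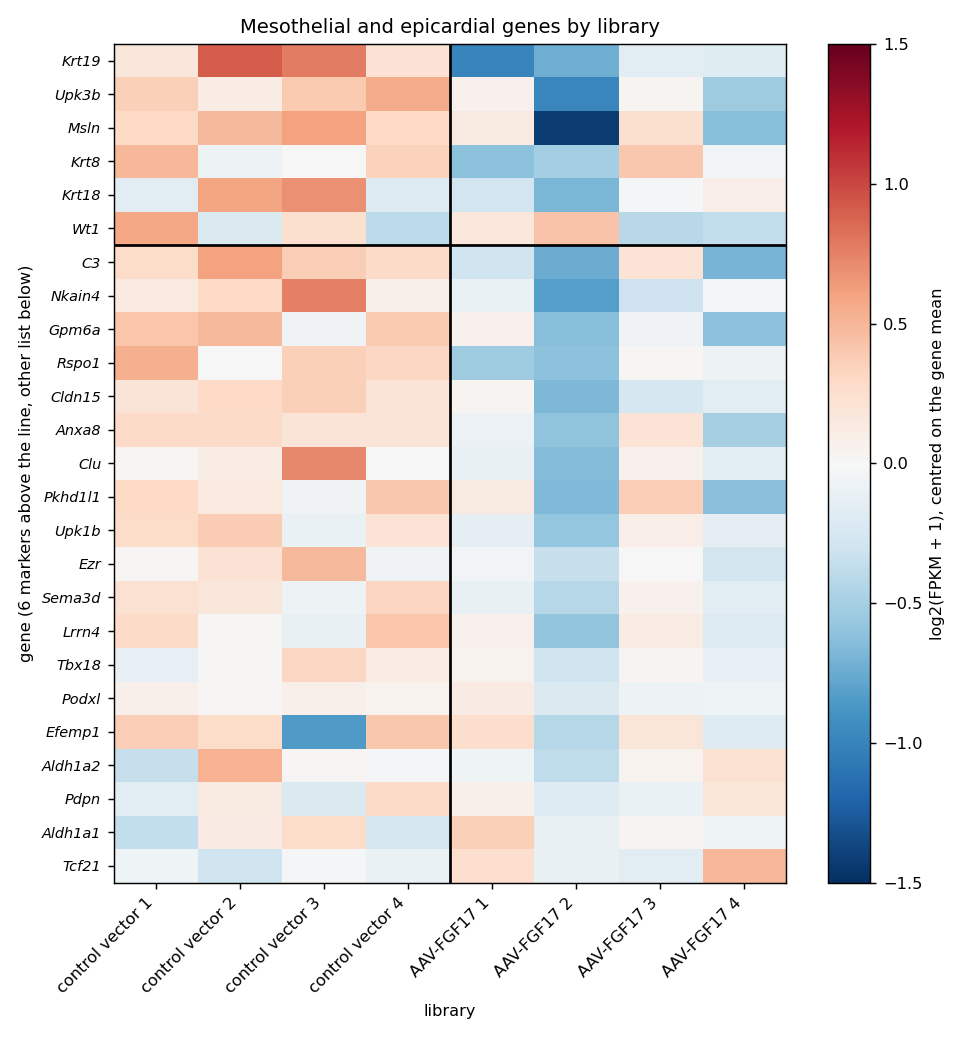
Log2(FPKM + 1) of the 6 markers (above the line) and of 19 other mesothelial and epicardial genes (below it, ordered by change), centred on each gene's mean, in the 8 libraries. AAV-FGF17 library 2 is the lowest for 15 of the 19 genes, and Wt1 is not among the markers that are lowest there.

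Other keratins were scarce. Of 12 further keratin genes 3 were in the table, and 1 of them, Krt10, reached the mean of 1 FPKM, at 1.28 ± 0.130 against 1.52 ± 0.460 FPKM (SD, n = 4 each). Krt7 and Krt80 fell short of it and their groups overlapped. Krt7 stood at 0.233 ± 0.0974 FPKM with AAV-FGF17 against 0.517 ± 0.156 FPKM, and Krt80 at 0.590 ± 0.277 against 1.01 ± 0.302 FPKM. The mean of Krt7 exceeded 0.501 FPKM, the table's lowest larger group mean, in controls only. Of 13 epithelial adhesion genes 2 were in the table, and of these only Tjp1, a tight junction scaffold that muscle and endothelium also express, was tested, at 14.2 ± 2.52 against 14.0 ± 2.40 FPKM. The remaining genes of these lists, Epcam and Cdh1 among them, were not in the table, whose genes all reached 0.501 FPKM in the mean of 1 group or more, and they were not analysed here. The same held for all 5 markers of lung epithelium and all 5 of thymus, tissues next to the heart.

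Of 12 partners of keratins in filaments and desmosomes, 8 were tested, and 7 of these lay below the median gene. Plec, the linker protein plectin, had no overlap of the groups, at 7.28 ± 0.457 against 10.6 ± 3.30 FPKM (limma adjusted p = 0.495). It was 1 of 8 tested partners, against 4.64% of all tested genes separated in that direction. After median-of-ratios scaling 1 of 8 was separated, against 2.42%. Plec was highest in control library 3, at 15.3 FPKM. Dsp, desmoplakin, stood at 109 ± 17.1 against 135 ± 17.9 FPKM, Vim, vimentin, at 37.4 ± 7.58 against 49.9 ± 11.5 FPKM and Des, desmin, at 257 ± 35.3 against 377 ± 216 FPKM. Heart muscle holds most of these proteins, and Des was highest in control library 3, at 687 FPKM.

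Markers of tissues at the base and surface of the heart also differed between libraries. The 6 atrial markers, all of them in the table and at 0 in no library, summed to 2271, 1393, 3111 and 2292 FPKM in control libraries 1 to 4 and to 1932, 563, 1900 and 865 FPKM in AAV-FGF17 libraries 1 to 4. AAV-FGF17 libraries 2 and 4, the lowest in Upk3b and Msln, were also the lowest in atrial markers, and the change of each of these 6 genes was lower than that of the median gene. The 8 white adipocyte markers, at 0 in no library, summed to 177, 147, 354 and 180 FPKM in control libraries 1 to 4 and to 67.9, 69.7, 209 and 51.5 FPKM in AAV-FGF17 libraries 1 to 4. Control library 2, whose sum of mesothelial markers as deposited was exceeded only by that of control library 3, was the lowest control for both lists. The smaller mitochondrial shares of control libraries 2 and 3, 44.5% and 30.9%, raise their FPKM of nuclear genes. These sums were not rescaled, so the order of the controls may differ after rescaling. AAV-FGF17 library 3, which had the highest sum of mesothelial markers in its group, lay among the controls in adipocyte markers.

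The 4 smooth muscle markers summed to between 146 and 213 FPKM in controls and between 76.8 and 148 FPKM in AAV-FGF17 hearts, again lowest in libraries 2 and 4. The 6 cardiomyocyte markers summed to 10115 and 15192 FPKM in control libraries 2 and 3 and to between 6111 and 6825 FPKM in the other 6 libraries. The 6 fibroblast markers summed to between 130 and 142 FPKM in controls and between 145 and 178 FPKM in AAV-FGF17 hearts. Dcn, the matrix proteoglycan decorin, made up most of that sum, at 107 ± 7.75 FPKM with AAV-FGF17 against 80.3 ± 12.2 FPKM. Of the 6, 4 lay above the median gene, while Col1a1 and Col1a2, the chains of type I collagen, lay below it at -0.25 and -0.34. The median change relative to the median gene was -0.93 for atrial, -0.89 for white adipocyte and -0.52 for smooth muscle markers. It was -0.29 for cardiomyocyte and 0.30 for fibroblast markers, and -0.46 for the 6 surface markers. At an unadjusted limma p under 0.05, 6 of 7 tested white adipocyte genes, 3 of 6 atrial and 3 of 4 smooth muscle genes were lower. So were 1 of 6 cardiomyocyte and 0 of 6 fibroblast genes, against 7.98% of all tested genes. At the same level 2 of 6 fibroblast genes, Dcn and Lum, were higher. The share of all tested genes that were higher was not counted. The part of these cell types in the lower levels of Krt19, Upk3b and Msln was not tested.

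**Figure D5:**
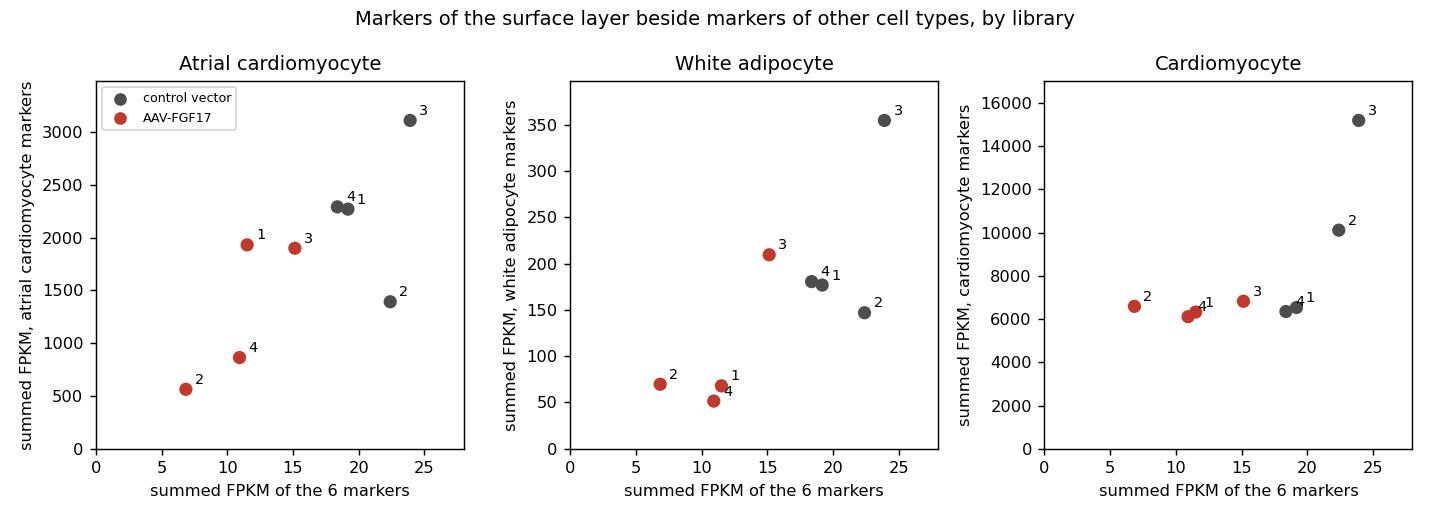
Summed FPKM of atrial, white adipocyte and cardiomyocyte markers (vertical axes) against the summed FPKM of the 6 mesothelial and epicardial markers (horizontal axes), 1 point a library with its replicate number. AAV-FGF17 libraries 2 and 4 are the lowest in atrial markers, AAV-FGF17 library 3 lies among the controls in adipocyte markers, and control libraries 2 and 3 stand apart in cardiomyocyte markers.

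The genes most alike in pattern were taken as those with the highest Pearson r, over the 8 libraries, to the mean of the 6 markers' centred log2 values. They were Apoc1, an apolipoprotein (r = 0.96), Prkar2b, a regulatory subunit of protein kinase A (0.95), Pecam1, an adhesion molecule of endothelium (0.93), Erbb3, a receptor for neuregulins (0.93), and Pck1, the gluconeogenic enzyme PEPCK that is abundant in fat (0.93). Cdo1, cysteine dioxygenase (0.93), and the near-identical Entpd4 and Entpd4b (0.92 each) followed, and reads may have been split between the last pair. Apoc1 stood at 2.38 ± 0.984 FPKM with AAV-FGF17 and 4.43 ± 0.899 FPKM with the control vector. These r values describe 8 libraries that share a group difference. Among the other mesothelial and epicardial genes, r to the same mean was 0.90 for C3 and -0.58 for Tcf21.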

How the data were processed

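RNA of mouse hearts was sequenced in 8 libraries, 4 per group. Per the file headers, the authors deposited 1 FPKM value for each gene in each library. Tools and build, per the submitters' processing notes, were HISAT2 2.1.0, StringTie 1.3.3, cutadapt 1.17, FastQC 0.11.7 and GRCm38, with no order or settings. Read counts are not in the table and no whole-read steps were found in its low values (0 of 8 libraries), so depth is unknown and the spread between hearts gives the precision. Columns were matched to samples by group and replicate number, which left 0 columns unmatched. How FPKM of genes with several transcripts were combined is not given.

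The 10025 of 11704 genes whose mean reached 1 FPKM were fitted as log2(FPKM + 1) with limma 3.58.1 in R 4.3.3, using a variance trend, no covariates and Benjamini-Hochberg adjustment over all tested genes. A fold change on this scale understates the change of low genes. Changes are given relative to the median gene (-0.12 as fitted) unless said to be as fitted, and p-values test the change as fitted. Single genes were also compared by exact permutation of the hearts. The labels do not say that the hearts are separate animals, so the p-values reflect only the spread among these libraries, which may be technical. The members, gene lists and tests were chosen with earlier results of these data known. Named genes are the 6 markers, Fgf17, the 3 most abundant and 2 of smallest p in each list of related genes, and the 8 most alike in pattern. Further genes of the lists are named where a count or a flag singles them out, or were picked after their values were seen. Marker lists of other cell types are given mainly as sums, with brown adipocyte, endothelial, macrophage, erythroid and skin epithelium lists kept to the closing section. Coordinates are those of the table on GRCm38, with GENCODE M21 for overlaps. Alternatives were another pseudocount, no filter, 2 rescalings, a replicate block, array weights and leaving out libraries.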

Additional observations from a re-analysis of the deposited data

Results flagged for a closer look

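In 50 groups of 4 libraries (25 mesothelial and epicardial genes in each treatment), 2 had a library far from the other 3, and chance gives about 1 in 20. Both lay in control library 3, the one with the smallest mitochondrial share. Efemp1, a matrix protein of fibroblasts and mesothelium, measured 9.78 FPKM there, and the nearest control measured 22.7 FPKM. Clu measured 161 FPKM there, and the nearest control 105 FPKM. None of the 6 markers had such a library.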

How the results depend on the processing

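None of the 6 markers passed limma under any of the 16 alternatives (lowest adjusted p 0.289), and Krt19, Upk3b, Msln, Krt8 and Krt18 lay below 0 as fitted in all 16. Wt1 fell under the filter in 5 of them. Leaving out 1 library at a time, its change ran from -0.25 to 0.023 over the 4 fits that held it, turning positive without AAV-FGF17 library 3 (0.023) or 4 (0.0077). Over all genes, 0 passed as reported, 5 with array quality weights, 6 without control libraries 2 and 3, and between 0 and 4 with 1 library left out. The share of the 19 other mesothelial genes below the median gene was 68.4%, and ran from 68.4% to 89.5% with 1 library left out, the latter without control library 3. The median r over pairs of markers was 0.37 as reported and -0.12 within groups, where the difference between groups does not enter, and 0.25 to 0.63 with 1 library left out, the highest without AAV-FGF17 library 1. It rests on 5 markers where Wt1 was filtered out. The nuclear rescaling raises the values, so that a pseudocount of 1 weighs less there.

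Replicate numbers 1 to 4 occur in both groups, but same-numbered hearts did not deviate together (r from -0.11 to 0.022 across tested genes), and 0 of 4 AAV-FGF17 hearts was closest to its own number. With the number as a replicate block, the log2 change of Krt19 was -1.04 as fitted (limma adjusted p = 0.415), and 0 genes passed. Counting control libraries 1 and 4 as 1 sample, an alternative chosen after seeing the data, also gave 0 genes. Depth is unknown, so its limit on values near 1 FPKM could not be given.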

Other observations

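A list of 10 genes covered the epicardial transition to mesenchyme and mural cell fate. Of 9 tested genes, 3 had a change below that of the median gene and 6 above, their own median was 0.13 relative to it, and none passed limma. Snai2, a repressor of epithelial genes, stood at 2.74 ± 0.582 FPKM with AAV-FGF17 and 1.94 ± 0.704 FPKM with the control vector (SD, n = 4 each; limma adjusted p = 0.495). Zeb1, another such repressor, stood at 7.14 ± 1.13 against 7.22 ± 0.431 FPKM, and Nrp1, neuropilin 1, at 10.9 ± 1.95 against 12.7 ± 2.20 FPKM. Tgfbr3, the TGF-beta co-receptor betaglycan, stood at 6.51 ± 0.718 against 7.32 ± 0.600 FPKM. Pdgfrb, the receptor that marks pericytes and other mural cells, stood at 4.29 ± 0.754 against 8.48 ± 3.48 FPKM, with a log2 change relative to the median gene of -0.66 ± 0.24 (SE, limma adjusted p = 0.495). Its controls ranged from 4.95 to 13.3 FPKM, and AAV-FGF17 library 3, at 5.41 FPKM, lay among them.

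The sums of the brown adipocyte, endothelial, macrophage and erythroid markers overlapped between the groups, while some single genes of these lists did not. The 3 listed brown adipocyte markers summed to between 625 and 964 FPKM in controls and between 541 and 675 FPKM in AAV-FGF17 hearts, most of it Cox7a1, a mitochondrial protein that muscle also expresses. Ucp1, the uncoupling protein of brown fat, had no overlap of the groups, at 5.25 ± 3.39 FPKM with AAV-FGF17 against 13.6 ± 1.87 FPKM, nor had Cidea, a lipid droplet protein, at 32.5 ± 4.94 against 53.5 ± 13.6 FPKM (limma adjusted p = 0.495 for each). They were 2 of 3 brown adipocyte genes, against 4.64% of all tested genes. After median-of-ratios scaling 2 of the 3 were separated, against 2.42% of all tested genes. Endothelial markers summed to between 260.1 and 330.3 FPKM against between 203 and 292 FPKM, and those of macrophages to between 133 and 205 FPKM against between 113 and 186 FPKM. Of the endothelial list, Pecam1 (25.3 ± 3.68 against 32.0 ± 1.11 FPKM) and Cdh5, VE-cadherin (43.6 ± 5.26 against 56.0 ± 8.31 FPKM), had no overlap as deposited, 2 of 5 against 4.64% of all tested genes. After median-of-ratios scaling 0 of the 5 endothelial genes were separated, against 2.42%. The single genes of these lists were named after their values were seen, and their part in the marker result was not tested. Erythroid markers summed to between 651 and 1238 FPKM in controls and between 929 and 1362 FPKM in AAV-FGF17 hearts. Of the skin and oesophagus list only Krt10 was in the table.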
